A study of Mus musculus with 24 samples.

Results

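Tunicamycin-treated ATF4-/- mouse fibroblasts were compared with tunicamycin-treated wild-type fibroblasts. The arrays were chosen by the genotype and treatment named in their labels: 2 of each kind, 4 of the 24 arrays of the series. Both lines received 2 ug/ml tunicamycin for 6 h. Each genotype is represented by a single cell line, so line and genotype cannot be told apart. The labels give replicate numbers but do not say that replicates were separate cultures, so every p-value measures only the spread between these arrays, which may be technical. The same lines without tunicamycin (2 arrays each), PERK-/- fibroblasts given 2 ug/ml tunicamycin for a time the labels do not state (2 arrays), and a pair of lines that express the kinase fusion Fv2E-PERK serve as further readouts. Of the latter, the SS line has wild-type eIF2alpha and, by its labels, lacks PERK, the AA line has a mutant eIF2alpha with no PERK genotype in its labels, and each was read untreated and after 8 h of 2 nm (as labelled) AP20187, a drug that activates the fusion (2 arrays each).

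Tunicamycin blocks N-linked glycosylation, so that unfolded proteins collect in the endoplasmic reticulum (ER). The kinase PERK then phosphorylates the translation factor eIF2alpha, which lowers general protein synthesis while the mRNA of the transcription factor ATF4 is translated more. ATF4 is known for activating genes of amino acid uptake and synthesis, tRNA charging and stress feedback, often with C/EBP family partners, in what is called the integrated stress response. The IRE1 and ATF6 branches of the unfolded protein response act beside it and are known for inducing ER chaperones.

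Each value is a ratio, set so that a probe set's median across the series is about 1, so a gene can be compared between arrays but its level cannot be set against that of another gene. The lowest value, 0.01, is a floor, where 22.6% to 25.3% of the probe sets lay on the 4 treated arrays. Over the tested probe sets, which are not independent replicates, log ratios correlated at r = 0.786 between the treated wild-type arrays and at r = 0.767 between the treated ATF4-/- arrays, against 0.617 to 0.674 between lines. Of 15 fibroblast markers, 13 were above the floor on all 4 treated arrays, and their summed ratio was 21.6 and 28.7 in wild type and 17.0 and 21.8 in ATF4-/- cells, which overlap. Gene by gene, 8 of the 12 tested markers read lower on both treated ATF4-/- arrays than on both wild-type arrays and 0 higher. Among all tested probe sets 27.0% read lower and 28.7% higher in this way. Without tunicamycin, 7 of the 12 read lower and 1 higher, beside 16.6% and 21.8%. The endothelial genes Cdh5, Icam2, Tie1 and Vwf (4 of 10 markers with a probe set), the leukocyte genes Cd3e, Cd53, Itgam and Lyz2 (4 of 11) and the epithelial genes Cldn7, Krt14 and Krt19 (3 of 12) were at the floor on all 4. Other markers were above the floor on all 4 arrays: 3 of the 10 endothelial, 4 of the 11 leukocyte, 4 of the 12 epithelial, 5 of 6 melanocyte, 5 of 6 adipocyte, 6 of 8 neural and 6 of 11 muscle genes. Summed ratios separated the lines for 3 of 8 marker lists: 9.02 and 4.55 in wild type against 9.43 and 10.4 in ATF4-/- cells for the 10 endothelial markers, 13.7 and 14.0 against 7.96 and 13.0 for the 12 epithelial markers, and 9.04 and 9.24 against 8.20 and 7.19 for 6 melanocyte markers. Such separation was common, with 28.7% of single tested probe sets above and 27.0% below wild type on both treated arrays. It does not set these 3 lists apart. Taking 1 probe set for each marker, only the fibroblast receptor Ddr2 passed the test described next. The collagen gene Col3a1 passed it at 1 of 3 probe sets, not the one taken for it. The part of cell composition in the results was not tested, and fewer cells of a type cannot be told apart from less RNA per cell.

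In treated ATF4-/- cells, 9 of 16 tRNA synthetases, 5 of 16 genes of amino acid synthesis, 3 of 8 amino acid transporters and 6 of 12 stress transcription factors were called lower than in treated wild-type cells, while 1 of 21 ER chaperones and folding enzymes was. This contrast is one of calls only. Of the 21 ER genes, 16 also lay below wild type on both arrays and 0 above (27.0% and 28.7% of all tested probe sets). Of 12422 probe sets, 7387 were never at the floor on the 12 arrays of the tunicamycin set and were tested with limma on log2(ratio + 0.247). At a Benjamini-Hochberg adjusted p under 0.05, 99 probe sets of 91 genes were called (1.34% of those tested). Of these, 72 were lower in ATF4-/- cells (0.975%) and 27 higher (0.366%). The median log2 difference over all tested probe sets was 0.013. Below, "fell" and "rose" refer to treated ATF4-/- relative to treated wild-type cells, a log2 difference is on the log2(ratio + 0.247) scale with its standard error, and a fold is the ratio of the 2-array means.

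The number of calls depended on every array. Without 1 treated array it was 29 or 20 (either wild-type array left out) and 16 or 13 (either ATF4-/- array left out). The lone array was then assumed to vary like the other groups. A core of 12 probe sets was called in all 4 of these fits: Serpinf1, Ptx3, Atf4, Igfbp2, Aars, Cebpb, Gars, Trib3, Aldh18a1, Psph and 1 probe set of Asns, which fell, and Alcam, which rose. Of the others, 1 was called in 3 of these fits, 10 in 1 and 76 in none. A fit on the 4 treated arrays alone called 22, of which 16 were among the 99.

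Atf4 itself was low in the mutant line with and without the drug. Its ratio was 1.64 and 1.62 on the treated wild-type arrays and 0.166 and 0.153 on the treated ATF4-/- arrays, a 10.2-fold difference of the means (log2 difference -2.21 ± 0.17, limma adjusted p = 0.000998). Untreated, it was 0.769 and 0.745 in wild type and 0.170 and 0.133 in ATF4-/- cells. The groups did not overlap in either condition, and the mutant values with and without tunicamycin lay in the same range while the wild-type values were higher with it. Whether the probes lie within the deleted part of the gene is not given in the sources used here.

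**Figure D1:**
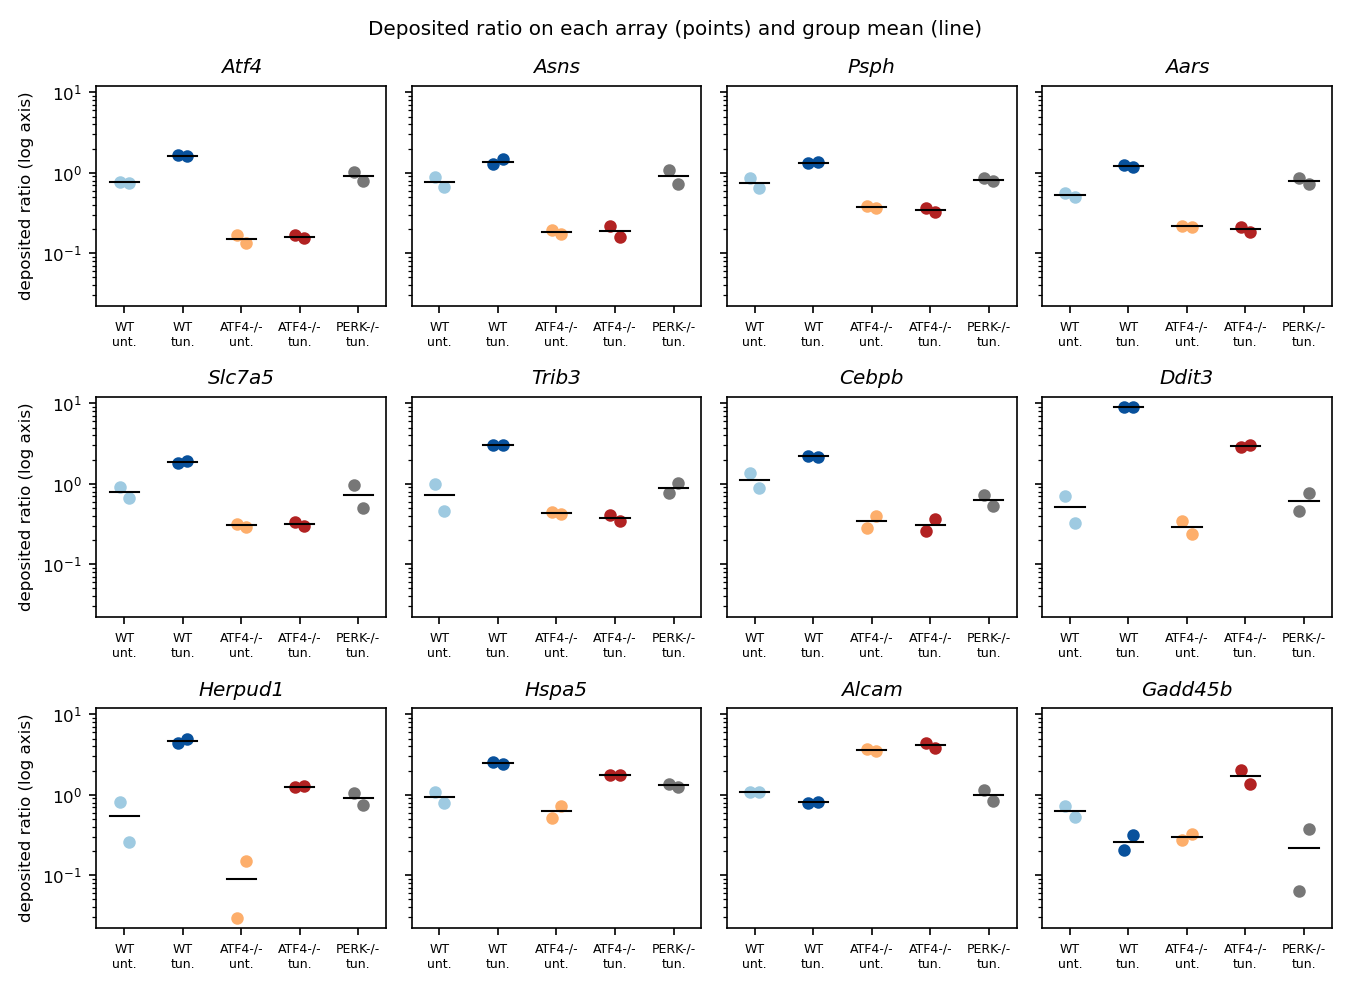
Deposited ratio (log axis, each gene relative to its own median over 24 arrays) of 12 genes on each array of 5 groups, with points for arrays and a line for the mean of 2. In treated cells, 9 genes (Atf4 to Herpud1) were called lower and Alcam and Gadd45b higher in ATF4-/- than in wild type, while Hspa5 was not called. Levels of different genes cannot be compared.

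Of 12 tested stress transcription factors, 6 fell and none rose, beside 0.975% and 0.366% of all tested probe sets. The median log2 difference of the 12 was -0.83. Both ATF4-/- arrays lay below both wild-type arrays for 10 of the 12, compared with 27.0% of all tested probe sets. The 6 were Atf4, Atf5, Cebpb, Atf3, Ddit3 and Nfe2l1. Without any 1 of the 4 treated arrays, only Atf4 and Cebpb stayed called.

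Cebpb, a bZIP factor that pairs with ATF4, measured 2.23 and 2.16 in treated wild-type and 0.255 and 0.361 in treated ATF4-/- cells (log2 difference -2.15 ± 0.21, limma adjusted p = 0.00231). Atf5, another bZIP factor under translational control by eIF2alpha, measured 1.05 and 1.39 against 0.0604 and 0.0781 (-2.20 ± 0.34, adjusted p = 0.0220). Both genes were also below wild type on both untreated arrays of the mutant. Atf3, a stress-induced repressor of the same family, measured 4.34 and 3.40 against 1.10 and 0.999 (-1.66 ± 0.23, adjusted p = 0.0160). A second Atf3 probe set differed the same way without passing the test (-1.15 ± 0.40, adjusted p = 0.239).

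Ddit3, which encodes the pro-apoptotic factor CHOP, was lower in treated ATF4-/- cells without being at its untreated level. It measured 8.998 and 8.92 with tunicamycin in wild type and 2.85 and 3.05 in the mutant (log2 difference -1.52 ± 0.26, adjusted p = 0.0285). Untreated arrays read 0.705 and 0.323 in wild type and 0.348 and 0.235 in ATF4-/- cells. Treated PERK-/- arrays read 0.459 and 0.763, so the treated ATF4-/- level stood between the other lines, and it was higher than in PERK-/- by 1.92 (limma adjusted p = 0.0041; 11.0% of tested probe sets were called in that comparison). The adjusted p against wild type ranged from 0.00196 to 0.183 over 17 fits, the reported one included, and passed in 8.

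Among 6 stress factors that were not called, Cebpg had a log2 difference of -0.86 ± 0.25 (adjusted p = 0.17), Nfe2l2, the antioxidant regulator NRF2, of -0.80 ± 0.19 (adjusted p = 0.089) and Atf6, an ER stress sensor, of -0.69 ± 0.23 (adjusted p = 0.22). Xbp1, whose mRNA IRE1 splices, measured 1.24 and 1.43 in treated wild-type and 1.44 and 1.41 in treated ATF4-/- cells (0.09 ± 0.16, adjusted p = 0.83). Its groups overlapped.

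Of 11 tested effectors and feedback genes of the integrated stress response, 4 fell (Trib3, Eif4ebp1, Ndrg1 and Herpud1), none rose, and 10 lay below wild type on both arrays, beside 0.975% called lower and 27.0% below on both arrays among all tested probe sets. The median of the 11 was -1.23. Only Trib3 stayed called when any 1 treated array was left out.

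Trib3, a pseudokinase that inhibits AKT and ATF4, measured 3.06 and 3.004 in treated wild type against 0.408 and 0.340 in treated ATF4-/- cells, 8.11-fold (log2 difference -2.40 ± 0.24, adjusted p = 0.00244). Untreated ATF4-/- arrays read 0.440 and 0.419, so the mutant showed no higher reading with the drug. Eif4ebp1, a repressor of cap-dependent translation, measured 1.47 and 1.74 against 0.434 and 0.400 (-1.47 ± 0.22, adjusted p = 0.0188). Ndrg1, a stress-responsive gene of growth control, fell at both of its probe sets (-1.23 ± 0.22 and -1.81 ± 0.25).

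Herpud1, an ER membrane protein of ER-associated degradation, measured 4.35 and 4.92 in treated wild type and 1.25 and 1.28 in treated ATF4-/- cells (-1.69 ± 0.33, adjusted p = 0.0470). Its untreated mutant readings were 0.0291 and 0.151, far below the treated ones, so its level with the drug was reduced in the mutant but not at its untreated level. This call lay close to the threshold and was made in 6 of 17 fits, the reported one included.

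Ppp1r15a encodes GADD34, which directs dephosphorylation of eIF2alpha. It was not tested because 1 untreated wild-type array was at the floor. Treated wild-type arrays read 5.49 and 5.35 and treated ATF4-/- arrays 0.765 and 0.575, an 8.09-fold difference of means. Treated PERK-/- arrays read 0.805 and 0.388, similar in size to the mutant readings. The treated wild-type and ATF4-/- readings did not overlap.

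Gtpbp2 and Stc2 had large differences that missed the threshold: -2.12 ± 0.52 (adjusted p = 0.102) for Gtpbp2, and -1.42 ± 0.29 (adjusted p = 0.0556) for Stc2, a secreted glycoprotein of calcium and phosphate balance. For Eif2ak3, the gene of PERK, arrays read 2.26 and 1.97 in wild type and 1.44 and 1.61 in ATF4-/- cells (-0.41 ± 0.73, adjusted p = 0.822). The untreated wild-type arrays of Eif2ak3 read 1.91 and 0.0222, a wide spread that enters this error.

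Of 16 tested genes of amino acid synthesis and one-carbon metabolism, 5 fell and none rose, beside 0.975% and 0.366% of all tested probe sets. The 5 were Aldh18a1, Asns, Mthfd2, Psph and Psat1. The median of the 16 was -0.44, smaller than the differences of the called members, and 11 lay below wild type on both arrays (27.0% of all tested did). Aldh18a1, Asns and Psph stayed called without any 1 treated array.

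Asns, the enzyme that makes asparagine, measured 1.27 and 1.48 in treated wild type against 0.219 and 0.158 in the treated mutant, a 7.29-fold difference (-1.90 ± 0.20, adjusted p = 0.00277). A second probe set gave 7.25-fold (-2.16 ± 0.29, adjusted p = 0.0159). Untreated ATF4-/- arrays read 0.195 and 0.175 at the first probe set, the same range as with tunicamycin.

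Aldh18a1, the first enzyme of proline synthesis from glutamate, measured 1.82 and 2.00 against 0.0981 and 0.199 (-2.46 ± 0.25, adjusted p = 0.00272). Its other tested probe set did not differ beyond its error (-0.10 ± 0.41, adjusted p = 0.934), so this call rests on 1 of 2 probe sets. Psph, the last enzyme of serine synthesis, measured 1.31 and 1.36 against 0.365 and 0.324 (-1.42 ± 0.15, adjusted p = 0.00277). The transaminase of the same pathway, Psat1, fell by 1.32 ± 0.26 on the log2 scale (adjusted p = 0.0470). Its first enzyme, Phgdh, gave -0.27 ± 0.22 (adjusted p = 0.590). Mthfd2, the mitochondrial folate enzyme, measured 0.933 and 0.996 against 0.249 and 0.162 (-1.43 ± 0.23, adjusted p = 0.0254). A second Mthfd2 probe set, not tested, was at the floor on both treated wild-type arrays and read 2.05 and 1.53 in treated ATF4-/- cells, the opposite order.

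Of 8 tested amino acid transporter genes, 3 fell and none rose, beside 0.975% and 0.366% of all tested probe sets. Their median was -0.78, and 5 lay below wild type on both arrays and 2 above (27.0% and 28.7% of all tested). Slc7a5 and Slc3a2 encode the light and heavy chains of the leucine transporter LAT1. Slc7a5 measured 1.83 and 1.91 in treated wild type against 0.339 and 0.297 in treated ATF4-/- cells (-1.91 ± 0.27, adjusted p = 0.0188). Slc3a2 measured 2.505 and 2.508 against 0.914 and 0.796 (-1.32 ± 0.21, adjusted p = 0.0228). The untreated mutant readings of Slc3a2 were 0.501 and 0.439, below the treated ones. Slc6a9, a glycine transporter, fell by 1.44 ± 0.25 (adjusted p = 0.0306). Slc38a4 differed upward without passing the test (0.65 ± 0.15, adjusted p = 0.0793). None of the 3 calls held when 1 treated array was left out.

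Aminoacyl-tRNA synthetases, the enzymes that load each tRNA with its amino acid, formed the list with the most calls. Of 16 tested, 11 lay below wild type on both arrays and 2 above (27.0% and 28.7% of all tested probe sets). None rose (0.366% of all tested did) and 9 fell (0.975% did): Gars, Aars, Nars, Tars, Lars, Eprs, Wars, Yars and Iars. Their log2 differences ran from -1.82 for Gars to -0.88 for Iars, and the median of the 16 was -0.95. Between 2 and 3 of the 9 stayed called when 1 treated array was left out, with Gars and Aars called each time.

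Gars, for glycine, measured 1.76 and 1.87 in treated wild type and 0.337 and 0.335 in treated ATF4-/- cells, 5.40-fold (-1.82 ± 0.18, adjusted p = 0.00231). Aars, for alanine, measured 1.24 and 1.17 against 0.213 and 0.183, 6.07-fold (-1.70 ± 0.16, adjusted p = 0.00231). Lars, for leucine, measured 1.19 and 1.30 against 0.383 and 0.411 (-1.21 ± 0.14, adjusted p = 0.00478). In each of these the ATF4-/- arrays lay below both untreated wild-type arrays as well.

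The remaining 7 synthetase genes had smaller differences, 4 of them above 0. Mars1 and Vars had log2 differences of -0.40 ± 0.15 and -0.37 ± 0.20. For Hars, for histidine, arrays read 0.583 and 0.523 in wild type and 0.536 and 0.556 in ATF4-/- cells (-0.01 ± 0.21, adjusted p = 0.986). Farsb, Rars, Qars and Farsa lay between 0.08 and 0.44, none of them called. Xpot, the exporter of tRNAs from the nucleus, is outside the list and was noticed after its values were seen. It measured 0.866 and 1.16 against 0.415 and 0.417 (-0.92 ± 0.16, adjusted p = 0.0339).

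**Figure D2:**
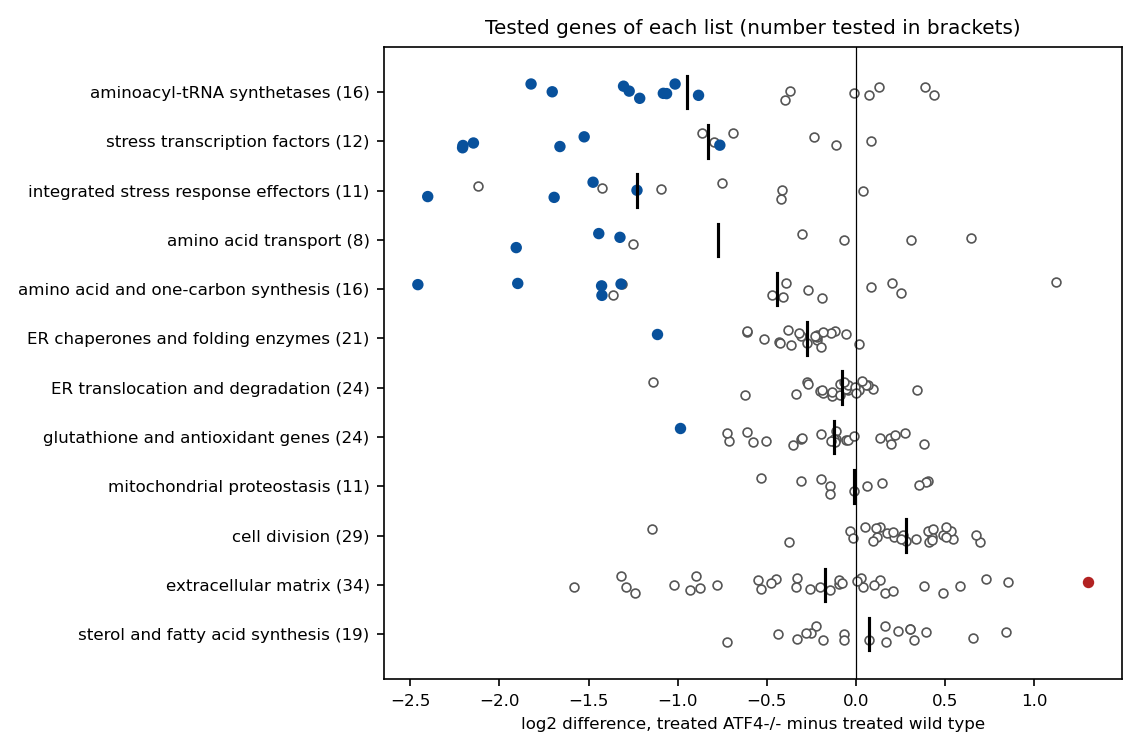
Log2 difference of treated ATF4-/- minus treated wild-type cells for each tested gene of 12 lists, filled where called (blue lower, red higher), with a bar at the list's median. The 9 called synthetases lie between -1.82 and -0.88, while 1 of 21 ER folding genes and none of 29 cell division genes was called. Among all tested probe sets 1.34% were called.

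Promoter windows of RefSeq (build GRCm38.p6, 250 bases before to 50 after the gene's start) were searched on both strands for the core of the C/EBP-ATF response element, the composite sequence that ATF4 dimers are known to bind. The 8-letter form TGATGNAA was in the window of 15 of 55 genes that fell and had a window (27.3%), and in 2.57% of the 4440 tested genes with one. The 9-letter form TGATGNAAT, which contains the former, was in 5 of the 55 (9.09%) and in 0.495% of tested genes. Neither form was in the windows of the 23 genes that rose and had one. Over all 32851 windows of the table the shares were 3.97% and 0.965%. By list, the 8-letter form was in 5 of 10 synthetases with a window, 3 of 8 effectors of the integrated stress response, 1 of 6 transporters, 1 of 9 stress factors and 1 of 15 amino acid synthesis genes. The 9-letter form was in 3 of the synthetases and in no other of these lists. A match is a description of the letters and not evidence of binding.

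The stretches below, 5′ to 3′ on the gene's strand, show the match in capitals for 8 genes that fell, from the synthetases, amino acid synthesis, stress factors, feedback genes and secreted proteins; where the capitals begin with TT or AT the match is on the other strand. Those of Aars, Gars, Asns, Atf3, Herpud1 and Serpinf1 end before the annotated start of the gene, and those of Trib3 and Iars lie just after it.
Aars, chr8:111033703-111033763, + strand: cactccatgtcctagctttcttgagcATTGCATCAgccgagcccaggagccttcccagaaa
Gars, chr6:55037940-55038000, + strand: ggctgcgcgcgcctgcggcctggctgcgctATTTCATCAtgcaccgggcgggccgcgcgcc
Iars, chr13:49682126-49682154, + strand: cactgtcagtATTGCATCAcctccagacg
Asns, chr6:7693210-7693270, - strand: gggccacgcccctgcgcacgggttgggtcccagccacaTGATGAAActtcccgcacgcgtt
Atf3, chr1:191183409-191183469, - strand: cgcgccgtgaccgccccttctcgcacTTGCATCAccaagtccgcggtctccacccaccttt
Trib3, chr2:152344029-152344056, - strand: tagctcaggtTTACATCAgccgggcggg
Herpud1, chr8:94386291-94386351, + strand: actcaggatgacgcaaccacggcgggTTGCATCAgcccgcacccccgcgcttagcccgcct
Serpinf1, chr11:75422624-75422684, - strand: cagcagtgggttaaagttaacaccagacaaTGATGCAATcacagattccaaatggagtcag

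ER chaperones and folding enzymes were mostly a little lower without passing the test. Of 21 tested, 1 fell (0.975% of all tested probe sets did), 20 had a log2 difference below 0 and 16 lay below wild type on both arrays (27.0% of all tested did), with a median of -0.27. The median of the same genes without tunicamycin was -0.24. The 1 called gene was Ero1a, the oxidase that recharges disulfide isomerases, which measured 2.16 and 2.18 in treated wild type against 0.923 and 0.812 in treated ATF4-/- cells (-1.12 ± 0.20, adjusted p = 0.0339). Its second probe set gave -1.27 ± 0.32 (adjusted p = 0.125).

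Hspa5, the major ER chaperone BiP, measured 2.54 and 2.38 against 1.75 and 1.78 (-0.43 ± 0.18, adjusted p = 0.312). Its untreated readings were 1.07 and 0.788 in wild type and 0.519 and 0.724 in ATF4-/- cells, so the groups were separate in both conditions and both lines read higher with the drug. Dnajb9, a co-chaperone of BiP, measured 7.39 and 9.05 against 4.25 and 6.51 (-0.61 ± 0.38, adjusted p = 0.483). Pdia4, a disulfide isomerase, had -0.61 ± 0.16 (adjusted p = 0.138). None of the 24 tested genes of ER translocation and degradation was called (1.34% of all tested probe sets were), and their median was -0.08. The largest difference among these was in Sel1l, a degradation adaptor (-1.14 ± 0.30, adjusted p = 0.13).

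The same ER folding genes differed between the mutant lines. In treated ATF4-/- against treated PERK-/- cells, 10 of the 21 were higher and none lower, with a median of 0.605. In that comparison 7.78% of all tested probe sets were higher and 3.22% lower. Dnajb9 was higher than in PERK-/- cells by 1.74 (adjusted p = 0.0224) and Pdia4 by 1.18 (adjusted p = 0.0043), while Hspa5 gave 0.37 (adjusted p = 0.217). Against PERK-/- cells, 5 of 16 amino acid synthesis genes, 2 of 8 transporters and 4 of 16 tRNA synthetases were lower and none higher. The log2 difference was -1.39 for Asns (adjusted p = 0.00485), -1.22 for Aars (adjusted p = 0.00358) and -1.49 for Atf4 (adjusted p = 0.00262). Other lists went differently. Of 12 stress factors, 1 was lower and 4 higher, with a median of 0.12. Of 11 integrated stress response effectors, 2 were lower and 0 higher, with a median of -0.058. Both comparisons use the treated ATF4-/- arrays, and the treatment time of PERK-/- cells is not stated. The ER stress response element, a sequence known from chaperone promoters, was in the windows of 7 of 20 ER folding genes (35%) and in 0.225% of tested genes, and in none of the 55 genes that fell or the 23 that rose and had a window.

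Several of the largest falls were in secreted or membrane proteins of other functions. Igfbp2, an insulin-like growth factor binding protein, measured 12.2 and 11.6 in treated wild type and 0.706 and 0.828 in treated ATF4-/- cells, 15.5-fold (-3.58 ± 0.33, adjusted p = 0.00231). Ptx3, a secreted pattern recognition protein, measured 7.28 and 8.44 against 0.437 and 0.535, 16.2-fold (-3.47 ± 0.25, adjusted p = 0.000716). Serpinf1, the anti-angiogenic factor PEDF, measured 2.94 and 3.22 against 0.318 and 0.252 (-2.65 ± 0.15, adjusted p = 0.000159), the smallest adjusted p of the comparison.

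These genes differed in how they stood without the drug. Igfbp2 read 11.4 and 10.1 in untreated wild type and 1.003 and 1.015 in untreated ATF4-/- cells, a log2 difference of -3.13 (adjusted p = 0.0190). Ptx3 read 2.33 and 1.25 in untreated wild type, below its treated level, and 0.486 and 0.493 in untreated ATF4-/- cells. A second Serpinf1 probe set had the opposite sign (0.75 ± 0.40, adjusted p = 0.412). Anxa8, a membrane-binding annexin, measured 3.798 and 5.47 against 0.343 and 0.813 (-2.60 ± 0.43, adjusted p = 0.0268), and was also low in untreated ATF4-/- cells (0.531 and 1.63 against 5.90 and 6.41).

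Cyp2b10 and Ly6g fell under treatment and had overlapping readings without it. Cyp2b10, a cytochrome P450, measured 3.31 and 3.73 against 0.540 and 0.241 with tunicamycin (-2.60 ± 0.38, adjusted p = 0.0188) and 2.46 and 3.44 against 2.67 and 2.79 without it. Ly6g, a GPI-anchored surface protein, measured 5.17 and 6.66 against 0.876 and 0.755 with the drug (-2.53 ± 0.37, adjusted p = 0.0188) and 1.64 and 2.02 against 2.00 and 2.28 without it. The test of the difference between treated and untreated differences gave adjusted p = 0.644 for Cyp2b10 and 0.467 for Ly6g, so neither change of difference passed it.

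Lonp1, a mitochondrial protease, measured 1.88 and 1.38 against 0.0213 and 0.0411 at 1 probe set (-2.74 ± 0.36, adjusted p = 0.0126) and showed the opposite sign at the other (0.36 ± 0.32, adjusted p = 0.624). Of the 11 mitochondrial chaperones and proteases tested, taking 1 probe set for each gene, none was called (1.34% of all tested probe sets were). Hmox1, heme oxygenase, was the only called gene of 24 glutathione and antioxidant genes (1.34% of all tested probe sets were called). It measured 1.63 and 1.69 against 0.721 and 0.710 (-0.99 ± 0.16, adjusted p = 0.0254). Of the 24, 12 lay below wild type on both arrays and 2 above (27.0% and 28.7% of all tested), with a median of -0.12. Nqo1, a quinone reductase, was called at 1 probe set that was not the one taken for the gene (-1.58 ± 0.30, adjusted p = 0.0427) and not at the other (-0.71 ± 0.23, adjusted p = 0.212). That other probe set was called in untreated cells, with a larger difference (-1.76 ± 0.23, limma adjusted p = 0.0351). It read 2.58 and 2.15 in untreated wild type against 0.476 and 0.572 in untreated ATF4-/- cells. Cpox, an enzyme of heme synthesis noticed after its values were seen, fell at both of its probe sets, reading 7.51 and 7.39 against 1.67 and 1.85 at the first (-1.94 ± 0.29, adjusted p = 0.0188).

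The 27 probe sets that rose belonged to 25 genes of mixed function, and no list held more than 1 of them. Alcam, a cell adhesion molecule, measured 0.782 and 0.820 in treated wild type and 4.46 and 3.79 in treated ATF4-/- cells, 5.15-fold (2.06 ± 0.20, adjusted p = 0.00231). It was the single rise that stayed called without any 1 treated array. Plin2, a lipid droplet coat protein, measured 0.302 and 0.200 against 1.27 and 1.39 (1.67 ± 0.20, adjusted p = 0.00577). Sox11, a transcription factor of developing tissues, rose at both of its probe sets (2.00 ± 0.32 and 1.40 ± 0.26). Alcam, Plin2 and Sox11 were higher in the mutant line on both untreated arrays too.

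Gadd45b, a stress-responsive growth arrest gene, read 0.205 and 0.315 in treated wild-type and 2.04 and 1.38 in treated ATF4-/- cells (1.94 ± 0.35, adjusted p = 0.0339). Untreated readings were 0.720 and 0.529 in wild type and 0.276 and 0.327 in ATF4-/- cells, the reverse order. Its second probe set gave 1.04 ± 0.31 (adjusted p = 0.181), and the related Gadd45g, at 0.449 and 0.399 against 1.55 and 1.08, gave 1.20 ± 0.25 (adjusted p = 0.0632). Lyst, a regulator of lysosomes, read 0.242 and 0.139 against 1.18 and 1.11 (1.68 ± 0.23, adjusted p = 0.0159), while untreated readings overlapped (0.887 and 1.07 against 0.654 and 0.966).

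Ppif, the mitochondrial cyclophilin, rose by 1.84 ± 0.30 (adjusted p = 0.0268), Ghr, the growth hormone receptor, by 1.43 ± 0.26 (adjusted p = 0.0339) and Lamb1, a laminin chain, by 1.31 ± 0.24 (adjusted p = 0.0349). Taking 1 probe set for each gene, Lamb1 was the only called member of 34 matrix genes (1.34% of all tested probe sets were called). Of the 34, 18 lay below wild type on both arrays and 7 above (27.0% and 28.7% of all tested), with a median of -0.17. Col3a1, a fibrillar collagen chain noticed after its values were seen, was called lower at another of its probe sets, reading 2.32 and 4.26 against 0.634 and 0.881 (-1.77 ± 0.32, adjusted p = 0.0339), and the remaining probe sets gave -1.51 ± 0.42 (adjusted p = 0.155) and -1.02 ± 0.33 (adjusted p = 0.202). Pvr, a nectin-like adhesion molecule, rose by 1.45 ± 0.23 (adjusted p = 0.0220) and Fez2 by 1.46 ± 0.27 (adjusted p = 0.0400). Acsm3, a medium-chain acyl-CoA synthetase, read 0.390 and 0.221 against 2.08 and 2.502 (2.21 ± 0.38, adjusted p = 0.0285). Noct, a circadian-regulated gene also called nocturnin, rose at 2 probe sets (2.24 ± 0.36 and 1.08 ± 0.16) and had the opposite sign at the third (-0.61 ± 0.27, adjusted p = 0.336).

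Other lists gave no more than 1 call. Only 1.34% of all tested probe sets were called, so having no call does not set a list of this size apart. None of 29 cell division genes passed the test, although 25 had a difference above 0 and 21 lay above wild type on both arrays (28.7% of all tested probe sets did), with a median of 0.28. The median of these genes was 0.208 without tunicamycin. Birc5, the mitotic protein survivin, read 0.312 and 0.366 against 0.671 and 0.732 (0.69 ± 0.19, adjusted p = 0.14). No gene was called among 20 Hox and positional factors, 16 interferon genes, 19 sterol and fatty acid genes or 13 contractile genes.

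The difference between the lines was partly present without tunicamycin, on arrays whose means the treated comparison does not use. Those arrays did enter its error estimate and floor filter, so they are not independent of which probe sets were called. In untreated cells, 7 probe sets were called (0.0948% of those tested), 2 higher (0.0271%) and 5 lower (0.0677%) in ATF4-/- cells, of which 5 were also called in treated cells, 71.4% of the untreated calls and 5.05% of the treated ones. The 5 were Atf4, Serpinf1, Igfbp2, Prrx2 and Alcam. Of the 72 that fell under tunicamycin, 67 had an untreated difference below 0 and 59 lay below wild type on both untreated arrays (16.6% of all tested probe sets did). Their median log2 difference was -1.39 treated and -0.55 untreated. Of the 27 that rose, 21 lay above wild type on both untreated arrays (21.8% of all tested did). By list, the untreated median was -0.41 for tRNA synthetases, -0.42 for stress factors and -0.39 for integrated stress response effectors. It was -0.20 for amino acid synthesis and -0.025 for transporters. In that order, 11 of 16, 7 of 12, 5 of 11, 8 of 16 and 3 of 8 lay below wild type on both untreated arrays. Those above were 1, 0, 0, 3 and 1.

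**Figure D3:**
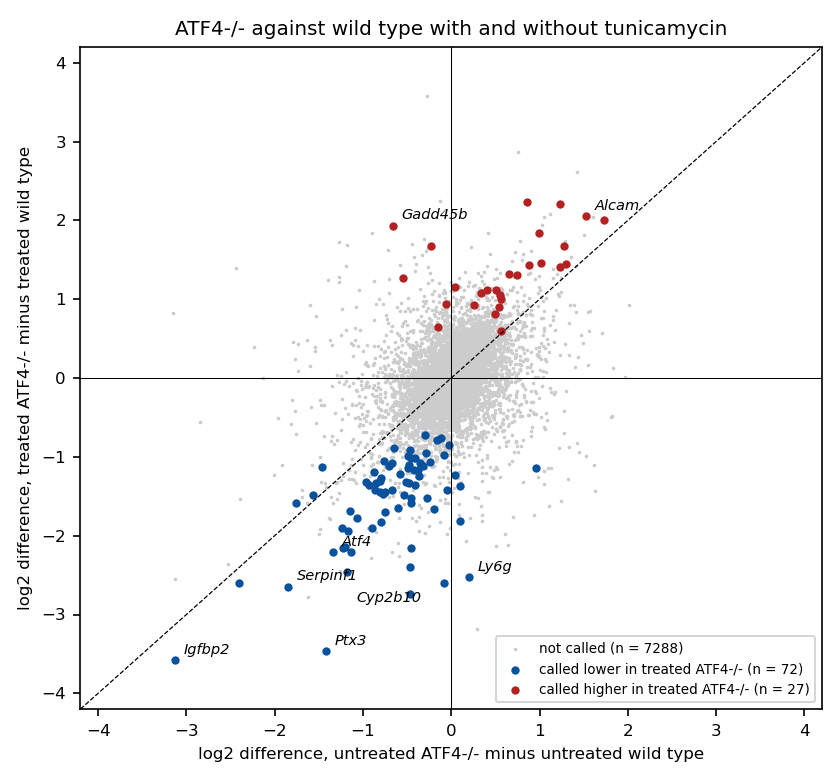
Log2 difference of ATF4-/- minus wild type with tunicamycin (vertical) against that without it (horizontal) for 7387 tested probe sets, with the 72 called lower in blue and the 27 called higher in red; the dashed line marks equal differences. Igfbp2 lies near the line, whereas Ptx3, Cyp2b10 and Ly6g lie far below it.

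No probe set passed the limma test of whether the treated difference differed from the untreated one, and 363 of the 7387 had an unadjusted p under 0.05. A fit on all 24 arrays called 4. A few genes had opposite signs in the 2 conditions. St3gal3, a sialyltransferase noticed after its values were seen, read 2.83 and 2.78 in treated wild type against 1.24 and 1.04 in treated ATF4-/- cells, and 1.27 and 1.21 against 2.55 and 2.73 untreated. Its treated difference was -1.14 ± 0.21 (adjusted p = 0.0355), and the difference of differences, -2.10, had adjusted p = 0.360.

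The called probe sets were also read on arrays of lines where PERK signalling was switched on without ER stress. Those lines carry Fv2E-PERK, and were given AP20187 for 8 h. Of the 72 probe sets that fell in treated ATF4-/- cells, 60 lay above untreated on both SS arrays after 8 h (33.8% of all tested did) and 4 below, with a median log2 difference of 0.99 against 0.065 for all tested. In the AA line 9 lay above (14.1% of all tested did) and 17 below (19.6%), with a median of -0.047 against -0.035. The replicate arrays at 8 h correlated at r = 0.677 in the AA line and r = 0.933 in the SS line. Counts of separate readings are therefore not fully alike between these lines. Of the 27 that rose, 9 lay above and 9 below in the SS line, beside 33.8% and 22.1% of all tested.

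By gene, the 8 h over untreated ratio of means in the SS and AA lines was 2.36 and 0.858 for Asns, 2.30 and 0.932 for Aars, 4.58 and 1.05 for Trib3, 5.98 and 0.956 for Atf3 and 6.52 and 0.852 for Ddit3. In the SS line, both 8 h arrays of each of these 5 genes lay above both untreated ones. Other genes that fell had SS readings that overlapped or were lower: the same ratios were 0.988 and 0.784 for Ptx3, 0.584 and 1.70 for Cyp2b10 and 0.376 and 0.834 for Anxa8. These values are descriptions over 2 arrays each and were not tested, and only 0.00805% to 0.105% of probe sets were at the floor on the 12 Fv2E-PERK arrays.

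**Figure D4:**
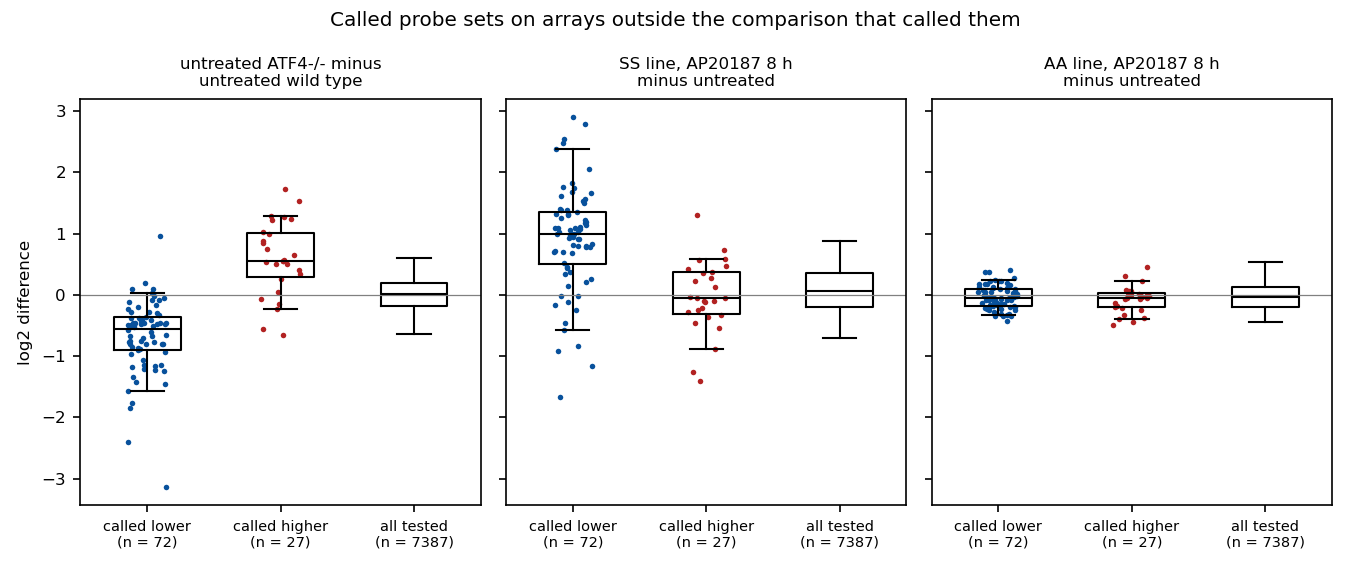
Log2 differences on arrays other than the 4 treated ones. Shown are the 72 probe sets called lower, the 27 called higher and all 7387 tested. Boxes mark quartiles, whiskers the 5th to 95th percentile and points the called probe sets. The untreated wild-type and ATF4-/- arrays entered the error estimate and floor filter of the treated comparison. Those called lower have a median of -0.55 in untreated cells, 0.99 in the SS line and -0.047 in the AA line.

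Some probe sets could not be tested because they were at the floor in 1 line. At the floor on both treated ATF4-/- arrays and above 1 on both treated wild-type arrays were 47 probe sets, and 48 showed the reverse. Car6, a carbonic anhydrase, read 38.7 and 90.0 on the treated wild-type arrays and was at the floor on all arrays of the ATF4-/- and PERK-/- lines. In the reverse direction Rps27l, a ribosomal protein paralog, read 18.4 and 10.8 in treated ATF4-/- cells, and 12.6 and 25.6 in untreated ones, with both treated wild-type arrays at the floor and untreated wild-type arrays at 23.3 and the floor. Others among these, such as Mpp7 and Six3, were at the floor on 1 untreated ATF4-/- array and read 13.3 (Mpp7) and 14.0 (Six3) on the other, so untreated replicates of these genes differed widely. Counted without the condition on level, 101 probe sets were at the floor on both treated ATF4-/- arrays and neither wild-type array, and 208 on both wild-type arrays and neither ATF4-/- array.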

How the data were processed

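The authors deposited ratio values for 12488 probe sets on 24 arrays; how they were made from the scans is not given in the sources used here. For 91.46% of probe sets the median over arrays lies within 0.01 of 1. Brightness, background and array centring are therefore unknown, and the number of arrays limits precision. GEO's platform annotation gave 1 symbol to 10833 probe sets, several to 396 and none to 1193.

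After 66 controls were removed, log2(ratio + 0.247), where 0.247 is the median of all values divided by 4, was fitted with limma 3.58.1 (R 4.3.3; lmFit, eBayes with trend) as 6 group means over the 12 tunicamycin-set arrays, with 6 residual degrees of freedom. Probe sets at the floor of 0.01 on any of the 12 were left out: 1351 were there on all 12 and 3684 on some. Tests were two-sided with Benjamini-Hochberg adjustment, and the fit was tested on simulated data. In the lists, each gene was represented by the probe set least often at the floor. Among 91 called genes, 25 had another tested probe set: all were called in 5, and 3 had one of opposite sign.

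Genes were named by rule: the 12 largest rises and falls among called probe sets of 1 gene whose arrays did not overlap, 10 stress genes always, up to 4 members per list by p-value, and up to 6 genes at the floor per direction. Some further genes were named outside this rule, among them the list members Cebpg, Xbp1, Phgdh and Hars. These 4 are not among the probe sets followed by gene over the alternative fits. The comparison, the 18 gene lists and the 8 marker lists were chosen with earlier results of these data known. Alternatives varied the pseudocount, filter, scaling, arrays fitted, prior, replicate block and single arrays.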

Additional observations from a re-analysis of the deposited data

Results flagged for a closer look

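The lines differed in opposite directions with and without tunicamycin, with the arrays of each line separate in both conditions, at 7 genes among those named by rule or called in treated cells. Separation in a single condition was common. Of all tested probe sets, 28.7% lay above and 27.0% below wild type on both treated arrays, and 21.8% and 16.6% on both untreated arrays. The share separate in opposite directions was not counted, so the 7 genes are not set apart from other probe sets. The treated minus untreated line difference was 2.60 on the log2 scale for Gadd45b (limma adjusted p = 0.467), 1.47 for Gadd45g (adjusted p = 0.810) and 0.394 for Ebp, an enzyme of cholesterol synthesis (adjusted p = 0.9995). It was -2.10 for St3gal3 (adjusted p = 0.360), 1.82 for Tnfrsf8, a receptor of the tumour necrosis factor family (adjusted p = 0.467), and 0.791 for Ergic2, a protein of ER to Golgi transport (adjusted p = 0.644). None of these 6 passed the test of that difference. For Ppp1r15a the value was -3.53 and the difference was not tested, because 1 untreated wild-type array was at the floor. Groups of 2 arrays are too small for a check on single outlying arrays.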

How the results depend on the processing

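The 92 probe sets followed by gene kept their sign under every alternative fit and filter tried. Other probe sets of the same gene gave the opposite sign for Noct (-0.614), Lonp1 (0.355) and Serpinf1 (0.747). Calls in treated cells, 99 in the reported fit, were 267 (108 higher, 159 lower) with all 24 arrays in the fit, also with the filter over 24 arrays, an alternative added after seeing the data. They were 22 (1 higher, 21 lower) on the 4 arrays alone and 13 to 29 (2 to 12 higher, 11 to 17 lower) leaving out 1 array. Without a floor filter 44 were lower, and 30 were higher, so the share of higher calls was 40.5% against 27.3%. With up to 2 floor values allowed 16 were higher. Untreated calls, 7 in the reported fit, were 13 without the filter, 4 with up to 2 floor values, 62 (64 with the filter over 24 arrays) with all 24 arrays, 0 on the 4 arrays alone (511 at an unadjusted p under 0.05), 14 after quantile normalization and 0 to 6 leaving out 1 array. The difference of differences gave 0 in the reported fit, 13 without the filter, 4 with all 24 arrays and 0 to 2 leaving out 1 array. ATF4-/- against PERK-/- gave 813, or 1307 (1305 with the filter over 24 arrays), 0 on those 4 arrays alone (1803 at an unadjusted p under 0.05) and 126 to 713 leaving out 1 array. Quantile normalization moved its share of higher calls from 70.7% to 57.5%. The cause of these changes was not tested. Replicate numbers are shared between groups but did not pair the treated arrays (correlation of deviations -0.011, and -0.194 for the untreated arrays of both lines). With the replicate block, treated calls were 88 and untreated calls 11.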
